A study of Mus musculus with 51 samples.

Results

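The 6 genes described here are Tgfb1, Tgfb2 and Tgfb3, which encode the transforming growth factor beta (TGF-beta) ligands, Tgfbr1 and Tgfbr2, which encode the type I and type II receptors, and Tgfbi, which encodes a secreted matrix protein named for its induction by TGF-beta. They were chosen by gene symbol out of 12393 genes that carry a probe set with 1 symbol, and they have 15 of the 22626 probe sets tested. Where a gene has several probe sets, the one with the highest mean log2 signal over all 51 arrays is called its main probe set, so the mean level chose the probe set and is given only as a description. The arrays measured RNA of alveolar macrophages taken from the lungs of C57Bl/6 mice, called WT here, and of gp91phox-/- mice, called KO here, to ask whether macrophages of a normal and an immune compromised host respond differently to the mould Aspergillus fumigatus. The gene lost in the KO, Cybb, encodes the gp91phox chain of the NADPH oxidase that phagocytes use to make superoxide, and is lost throughout the animal, so a difference between the genotypes need not arise in the macrophage. Conidia, the spores of the mould, were instilled into the lung in vivo at doses the labels name e6 and e7, with no unit, and cells were taken at 2 h or 4 h. Each genotype also had untreated cells at 0 h and mock-instilled mice at 2 h and 4 h, and WT mice alone received polystyrene beads, with cells taken at 4 h. WT groups had 4 arrays each, apart from 2 for beads, and KO groups had 3, which made 15 groups with 30 WT and 21 KO arrays. The labels call the arrays biological replicates without saying how many mice each one holds, and they do not give the age or sex of the mice.

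TGF-beta ligands are secreted in a latent complex with their propeptide and a latent TGF-beta binding protein, and integrins or proteases release the active ligand. Active ligand brings type II and type I receptors together, and the type I receptor kinase then phosphorylates Smad proteins that enter the nucleus and regulate target genes. In the lung, alveolar macrophages need TGF-beta signalling for their development and upkeep, and the pathway restrains inflammation in the airspace.

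Values are log2 of the deposited signal, on which each array had been scaled to a trimmed mean of 500, and a comparison is called where the adjusted p of limma, a linear model fitted to all probe sets and all 51 arrays, was under 0.05. Signals under 50 are treated as the low end of the scale in an alternative, and values there have little meaning as levels. That alternative makes the arrays it changes equal, so its SEs and p-values understate their spread. Cybb itself separated the genotypes on every array, with 10.59 to 12.12 in WT and 6.77 to 9.06 in KO; where its probe set lies relative to the deletion is not given. All 13 measured alveolar macrophage markers were above a signal of 50 on all arrays, and the mean of that list ran from 12.34 to 12.93. Array depth does not apply here, and the number of arrays per group limits the precision. The cells were profiled in bulk, so fewer cells of a type and less RNA per cell cannot be told apart.

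Over the 23 planned comparisons the 6 main probe sets gave 138 tests, of which 8 were called, 1 higher and 7 lower, and 21 had an unadjusted p under 0.05. The called tests were 3.54% of all tests when every probe set was counted over the same 23 comparisons. Tgfb2 accounted for 3 of the calls, Tgfbi for 4 and Tgfbr1 for 1, while Tgfb1, Tgfb3 and Tgfbr2 had none. The 4 calls between the genotypes were all lower in KO, and they were again lower with quantile normalization. Of these, 3 came from the mean over the 7 conditions that both genotypes share. There 33.4% of all probe sets and 35% of the main probe sets of all genes were called. The other was in untreated cells, where 1.99% of all probe sets were called.

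Tgfb2, the ligand best known from development and from epithelial and stromal cells, was lower in KO than in WT macrophages. It is measured by 3 probe sets, with 1450923_at as the main one. Over all arrays the main probe set ran from 6.14 to 8.13 with a median of 7.2 in WT, and from 4.5 to 6.88 with a median of 5.79 in KO. Of the 21 KO arrays, 17 lay below every WT array, and of the 30 WT arrays 21 lay above every KO array. Ordered by mean, the 7 KO groups took ranks 1 to 7 of 15, from 5.14 in untreated KO to 6.6 in KO at 2 h with e7, and the 8 WT groups took ranks 8 to 15, from 6.84 at 4 h with e6 to 7.83 with beads. Most neighbours in that order differed by less than the pooled SD of 0.44, the exceptions being the step of 1.04 SDs up to KO at 2 h with e7 and the step of 1.19 SDs up to untreated WT. The signal fell below 50 on 10 KO arrays and on no WT array.

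**Figure D1:**
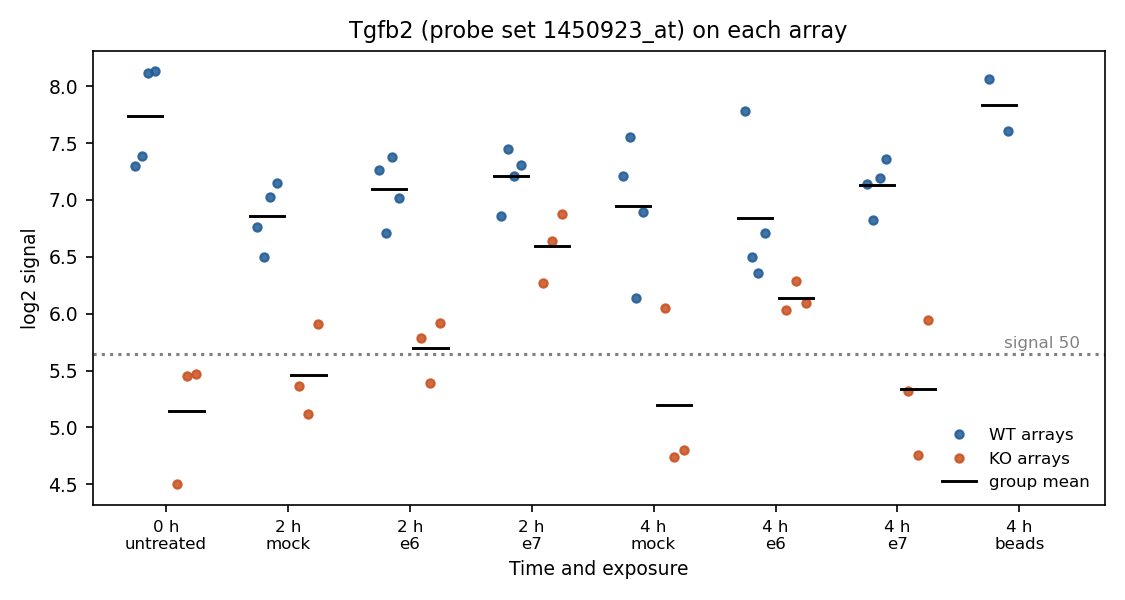
Log2 signal of the main Tgfb2 probe set on each of the 51 arrays, by time and exposure, with WT in blue, KO in orange, the mean of each group as a black line and a signal of 50 as a dotted line. KO arrays reach at most 6.88 and WT arrays at least 6.14, and untreated WT and KO lie farthest apart.

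The sequence upstream of the Tgfb2 start is shown because Tgfb2 is the member with the largest genotype difference, and that of Tgfbi because it is the member called most often in the 23 planned comparisons. Each line gives the 250 bases before the start that the RefSeq promoter table (mouse build GRCm38.p6) lists for the gene. The bases run 5′ to 3′ on the gene's own strand, and 5 of the 6 genes have an entry. The windows were searched on both strands for the E-box CACGTG, the TATA box TATAAA, the GC box GGGCGG, the cAMP response element TGACGTCA, the AP-1 element in the forms TGAGTCA and TGACTCA, and the palindromic Smad element GTCTAGAC, and capitals mark every match.
Tgfb2, chr1:186705990-186706239, minus strand: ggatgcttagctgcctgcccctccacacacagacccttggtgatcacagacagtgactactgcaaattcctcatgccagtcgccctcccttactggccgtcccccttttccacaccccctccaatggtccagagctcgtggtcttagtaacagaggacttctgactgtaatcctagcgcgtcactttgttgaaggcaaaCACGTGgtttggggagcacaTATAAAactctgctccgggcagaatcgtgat
Tgfbi, chr13:56609336-56609585, plus strand: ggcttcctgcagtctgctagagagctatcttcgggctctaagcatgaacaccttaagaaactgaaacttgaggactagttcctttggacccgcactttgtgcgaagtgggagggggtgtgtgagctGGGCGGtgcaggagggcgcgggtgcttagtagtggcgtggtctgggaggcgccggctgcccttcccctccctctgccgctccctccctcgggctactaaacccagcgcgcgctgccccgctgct
The Tgfb2 window lies inside the annotated span of the gene, so the start used is not the 5′ end of that span. It holds an E-box that begins 51 bases and a TATA box that begins 31 bases upstream of the start used. Of 32851 windows of the same length in the table, 6.02% hold the E-box and 12.4% the TATA box. The Tgfbi window holds a GC box 124 bases upstream, a motif found in 32.7% of windows. Neither window holds the letters of the cAMP response element (1.55% of windows), the AP-1 element (4.46%) or the Smad element (0.167%). A match is a run of letters and was not tested as a binding site.

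The genotype comparison asks how KO macrophages differ from WT macrophages given the same treatment. Averaged over the 7 conditions that both genotypes share, Tgfb2 had a mean of 5.65 in KO and 7.12 in WT, a difference of -1.46 ± 0.13 (SE) or 2.76-fold, with an adjusted p of 1.16e-11. In that comparison 33.4% of all probe sets were called, 4945 higher and 2617 lower in KO. Quantile normalization turned that split to 2847 higher and 3721 lower and moved the median of all probe sets from 0.11 to -0.03, a shift of 0.15, and the Tgfb2 difference stayed called in that and in every other of 60 alternatives, between -2.05 and -1.2. With signals under 50 set to 50 it was -1.2, or 2.3-fold. The other probe sets gave the same direction, with -1.87 ± 0.18 for 1423250_a_at (adjusted p 3.11e-10) and -2.05 ± 0.26 for 1450922_a_at (adjusted p 7.61e-08). On each of them 19 of the 21 KO arrays lay below every WT array, although many of those KO signals were under 50, 17 of 21 on the former and 21 of 21 on the latter. With signals under 50 set to 50 these differences shrank to -1 (adjusted p 1.31e-09) and -0.41 (0.000467). On the latter probe set all 21 KO arrays are then equal, so that p does not measure a spread among them.

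Untreated macrophages showed the widest gap. The 4 WT arrays read 7.3, 7.39, 8.12 and 8.13, and the 3 KO arrays read 4.5, 5.45 and 5.47. Every KO array lay below every WT array, as for 14.8% of probe sets whose groups did not overlap there, and the gap was wider than the whole spread within either group. The difference was -2.59 ± 0.34 with an adjusted p of 3.31e-06 in a comparison where 1.99% of all probe sets were called. All 3 KO arrays were under a signal of 50, so the size of the difference is uncertain. With such signals set to 50 it was -2.09 ± 0.26, or 4.26-fold, with an adjusted p of 2.38e-06. The 3 KO arrays are then equal, so that SE and p do not measure their spread. Probe set 1423250_a_at fell by 3.46 on the log2 scale (SE 0.49, adjusted p 1.73e-05), from 6.56, 6.5, 8.08 and 7.78 in WT to 2.06, 5.08 and 4.17 in KO, all again under a signal of 50, and the difference was -1.59 (0.000556) with those set to 50. The call on the main probe set was lost when only these 2 groups were fitted, where the adjusted p was 0.0531, and the third probe set gave -2.27 with an adjusted p of 0.0743.

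Within each of the other 6 conditions, contrasts chosen after the values were seen, the KO mean was lower for Tgfb2 every time. At 2 h the difference was -1.4 after mock (adjusted p 0.0143, with 2.25% of probe sets called), -1.39 with e6 (0.0149, 2.04% called) and -0.61 with e7 (0.255, 8.89% called). At 4 h it was -1.75 after mock (0.00166, 4.06% called), -0.7 with e6 (0.14, 17.5% called) and -1.78 with e7 (0.000464, 15.6% called), and each of the 6 values had an SE of 0.34. Quantile normalization took the value with e6 at 4 h to -1.41 (adjusted p 0.00306), and the median of all probe sets there was 0.25 as deposited. The calls at 2 h were lost without KO mock replicate 1 (-1.34, 0.0583) or 2 (-1.22, 0.123), and without WT e6 replicate 3 (-1.3, 0.0553) or KO e6 replicate 2 (-1.24, 0.111). The call after mock at 4 h was lost on 1423250_a_at (-1.39, 0.102) and on 1450922_a_at (-1.77, 0.142), that after mock at 2 h on 1423250_a_at (-1.4, 0.147) and that with e6 at 2 h on 1450922_a_at (-1.79, 0.219). With only the 2 groups compared in the fit, none of the 4 was called, with adjusted p of 0.0832 and 0.0956 at 2 h and 0.144 and 0.142 at 4 h. With signals under 50 set to 50 all 4 stayed called, at -1.13 and -1.31 at 2 h and -1.17 and -1.38 at 4 h. The groups did not overlap in the 4 conditions that were called, as for 17.1% of probe sets after mock and 11.4% with e6 at 2 h, and for 18.6% after mock and 19% with e7 at 4 h. Nor did they overlap with e6 at 4 h, as for 29.3% of probe sets, with KO arrays at 6.03, 6.29 and 6.09 and the lowest WT array at 6.36. That condition was called on 1423250_a_at (-2.03, adjusted p 0.00405) and on 1450922_a_at (-2.29, 0.0182), where all 3 KO arrays were under a signal of 50. After mock at 4 h the WT arrays read 7.21, 7.55, 6.14 and 6.89 and the KO arrays 6.05, 4.74 and 4.8, while with e7 they read 7.14, 6.82, 7.19 and 7.36 in WT and 5.32, 4.76 and 5.94 in KO. The lowest WT array after mock, at 6.14, came close to the highest KO array, at 6.05, and with e7 the gap was wider.

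**Figure D2:**
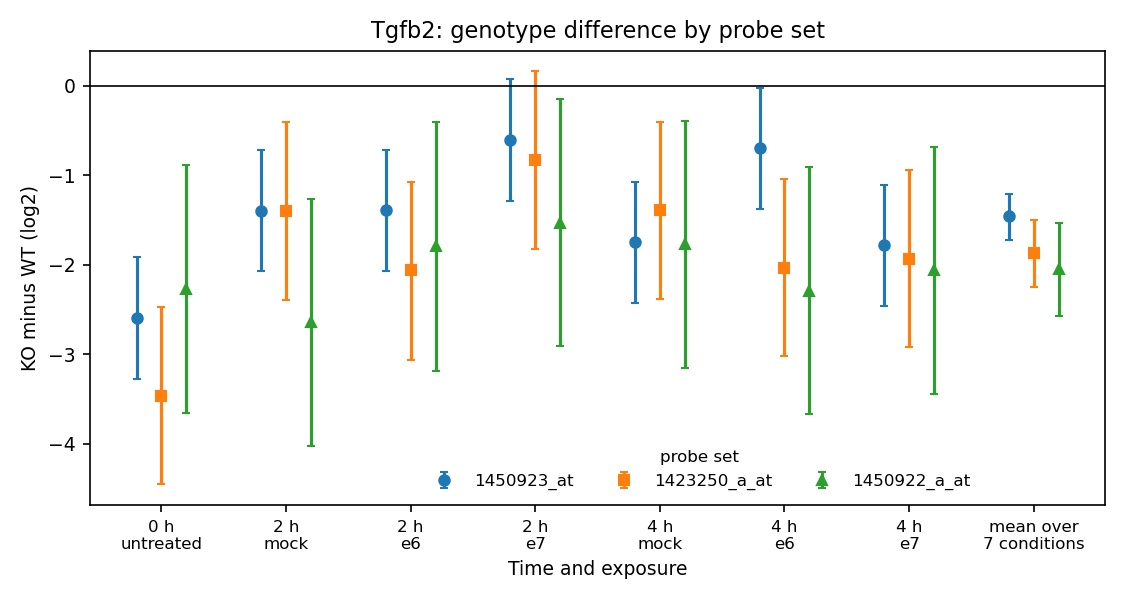
KO minus WT difference of Tgfb2 in log2 for its 3 probe sets in each shared condition and as the mean over 7 conditions; points are estimates and bars are 95% confidence intervals of the fit. All points lie below 0, and the main probe set is nearest to 0 at 2 h with e7 (-0.61) and 4 h with e6 (-0.7).

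Some markers of other cells were also called between the genotypes. Of all probe sets, 21.9% were called higher and 11.6% lower in KO over the 7 conditions. Averaged over the 7 conditions, called higher in KO were 7 of 9 T and NK cell markers, 4 of 8 monocyte and dendritic cell markers, 5 of 10 endothelial and stromal markers and 2 of 7 platelet markers, and none of those was called lower. With quantile normalization the counts higher were 4, 4, 4 and 2, with 1 endothelial and stromal marker lower. Lung epithelial markers were called higher for 2 and lower for 2 of 11, B cell markers higher for 1 of 4, neutrophil markers higher for 1 and lower for 1 of 11, and neither of the 2 erythroid markers was called. Of the 13 alveolar macrophage markers 3 were called higher and 3 lower. The platelet, B cell and epithelial counts lie near the shares over all probe sets. The summed signal of the monocyte and dendritic cell list ran from 249 to 609 in WT and from 389 to 2480 in KO, and that of the T and NK cell list from 2880 to 6630 in WT and from 3550 to 6720 in KO. The T and NK cell sum was mostly Cd2, which read 11.36 to 12.68 over all arrays. Cd3d and Cd3g were under a signal of 50 on 50 and 48 of the 51 arrays, so that sum is not a measure of T cells. The endothelial and stromal list summed to between 282 and 658 in WT and between 302 and 958 in KO, with medians of 376 and 536. The platelet list summed to between 305 and 727 in WT and between 423 and 1090 in KO, with medians of 439 and 648. The epithelial list summed to between 1870 and 6540 in WT and between 1910 and 5840 in KO, with medians of 3310 and 2510. The T cell marker Cd3e, the B cell markers Cd79b and Pax5, the endothelial marker Pecam1, the stromal marker Dcn and the platelet markers Ppbp and Gp9 were under a signal of 50 on all 51 arrays. The part of these cells in the Tgfb2 difference was not tested.

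Tgfb2 was called in 1 of 8 comparisons of conidia with mock. In KO at 2 h with e7 the arrays read 6.27, 6.64 and 6.88 against 5.36, 5.12 and 5.91 after mock. All 3 exposed arrays lay above all 3 mock arrays, as they did for 38% of all probe sets in that comparison. Tgfb2 rose by 1.13 ± 0.36, or 2.19-fold, with an adjusted p of 0.0414, and 8.65% of all probe sets were called there. The median of all probe sets was 0.26 higher with e7, a shift that quantile normalization took to 0.01, and Tgfb2 then differed by 0.7 with an adjusted p of 0.231. The call was lost in 9 of 15 alternatives, among them leaving out exposed replicate 1 (1.29, adjusted p 0.061), 2 (1.11, 0.0915) or 3 (0.99, 0.156) or mock replicate 1 (1.08, 0.103) or 2 (0.96, 0.151), using 1423250_a_at (0.98, 0.233) or 1450922_a_at (1.24, 0.284), and fitting only these 2 groups (0.0785). The ratio of 3′ to 5′ control signal, a sign of RNA quality taken as the geometric mean of the Gapdh and beta-actin controls, was 2.74 to 7.98 on the exposed arrays and 1.89 to 2.32 on the mock arrays, and with the log2 of that ratio as a covariate the rise was 1.18 with an adjusted p of 0.0471. In WT at 2 h the e7 arrays read 6.86, 7.45, 7.21 and 7.31 and the mock arrays 6.76, 6.5, 7.03 and 7.15, a difference of 0.35 that was not called (adjusted p 0.645). The KO response minus the WT response was 0.78 ± 0.47 (adjusted p 0.44), so a difference between the genotypes in this response was not detected.

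Mock instillation and beads gave no call for Tgfb2 on the signal as deposited. WT mock arrays at 2 h (6.76, 6.5, 7.03 and 7.15) all lay below the untreated WT arrays, with a difference of -0.88 ± 0.31 and an adjusted p of 0.309, in a comparison where 0.00442% of probe sets were called and 8.41% had groups that did not overlap. KO mock arrays at 2 h differed from untreated KO by 0.32 (adjusted p 0.892). The KO change from untreated to mock minus the WT change, a contrast chosen after the values were seen, was 1.2 ± 0.47 at 2 h (adjusted p 0.662) and 0.84 ± 0.47 at 4 h (adjusted p 0.48), and probe set 1450922_a_at gave -0.37 at 2 h. The bead arrays read 8.06 and 7.61, above all 4 WT mock arrays at 4 h, with a difference of 0.88 ± 0.38 and an adjusted p of 0.218. That comparison called 1.14% of probe sets, and 26.5% had groups that did not overlap. The ratio of 3′ to 5′ control signal was 17.3 to 39.9 on the bead arrays and 2.28 to 5.06 on those mock arrays. With its log2 as a covariate the difference was 1.03 ± 0.46 with an adjusted p of 0.465. With signals under 50 set to 50 the difference of beads from mock, again 0.88, was called (adjusted p 0.0494). So was e6 minus beads in WT at 4 h (-0.99, with 0.202 as deposited and 0.0266 then). No WT array was under a signal of 50, so that setting changed none of the values compared. The SE of beads minus mock fell from 0.38 to 0.3, since the spread is estimated over all groups, KO included. These 2 calls are therefore not further evidence from the bead, mock or e6 arrays.

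Tgfb1, the ligand that leukocytes make most, was measured by 1 probe set and was not called in any of the 23 comparisons. Its arrays ran from 6.85 to 10.15 in WT with a median of 8.64, and from 8.08 to 9.99 in KO with a median of 8.8. The spread within groups was wide, with a pooled SD of 0.71, and every step between neighbouring group means was smaller than that. At 2 h in WT the mock arrays read 8.48, 8.03, 8.34 and 9.36, the e6 arrays 8.04, 9.05, 10.15 and 9.98, and the e7 arrays 9.02, 9.38, 9.83 and 9.31. Most exposed arrays were above most mock arrays and both pairs of groups overlapped, with differences of 0.76 for e6 (adjusted p 1) and 0.83 for e7 (adjusted p 0.436). KO minus WT over 7 conditions was 0.09 ± 0.2, with a 95% confidence interval of -0.32 to 0.5. Within conditions the genotype differences ran from -0.56 to 1.24, and the latter, at 4 h with e7, had an adjusted p of 0.113.

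Tgfb3, the third ligand, stayed at the low end of the scale. Its main probe set was under a signal of 50 on all 51 arrays, between 0.25 and 4.38, and none of its 23 comparisons was called (lowest adjusted p 0.312). No fold is given at such signals.

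Tgfbr1, the kinase that passes the signal to the Smads, was slightly lower in KO. Its main probe set 1420895_at varied little, with all 51 arrays between 12.23 and 13.14. WT arrays had a median of 12.74 and KO arrays a median of 12.62, and 5 KO arrays lay below every WT array while 5 WT arrays lay above every KO array. The mean over 7 conditions was 12.6 in KO and 12.76 in WT, a difference of -0.16 ± 0.04 or 1.12-fold with an adjusted p of 0.0051, and 33.4% of all probe sets were called in the same comparison. The direction held in each of the 7 conditions, from -0.33 at 4 h with e7 (adjusted p 0.0521) to -0.07 at 2 h with e7, and no condition was called alone. The dimmer probe sets did not repeat the call, with -0.14 for 1420894_at (adjusted p 0.502) and 0.15 for 1420893_a_at (adjusted p 0.54), and the group means of the main probe set correlated with theirs at r of 0.24 and 0.02 over 15 groups that share their arrays.

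Conidia gave no call on the main probe set of Tgfbr1, whose 8 differences from mock lay between -0.05 and 0.21. Probe set 1420894_at, in contrast, read 7.28, 6.56, 6.55 and 6.86 in WT at 2 h with e7 against 4.52, 4.43, 5.61 and 5.61 after mock. The groups did not overlap, which was so for 11.1% of probe sets there. The rise was 1.77 ± 0.37 with an adjusted p of 0.00881 and 1.61% of all probe sets called. All 4 mock arrays were under a signal of 50, and with such signals set to 50 the rise was 1.17 ± 0.28, or 2.25-fold (adjusted p 0.0175), while the main probe set differed by -0.05 (adjusted p 0.879). The ratio of 3′ to 5′ control signal was 4.27 to 28.9 on those e7 arrays and 1.91 to 2.77 on the mock arrays, and with its log2 as a covariate the rise was 1.27 and not called (adjusted p 0.169). It was also lost without e7 replicate 1 (1.61, 0.0533) or mock replicate 2 (1.56, 0.0734), and with only these 2 groups in the fit (0.143).

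Tgfbr2, the receptor that binds the ligand first, was the steadiest member over all arrays on its main probe set 1426397_at, with values between 12.63 and 13.39. The genotypes did not separate, with a KO minus WT difference of 0.03 ± 0.04 and a 95% confidence interval of -0.05 to 0.11 (adjusted p 0.558). In WT at 4 h the e7 arrays read 12.63, 12.75, 12.96 and 12.96 and the mock arrays 13.11, 13.17, 13 and 13.09. All e7 arrays were below all mock arrays, as for 9.67% of probe sets, and the difference of -0.27 ± 0.1 had an adjusted p of 0.0589. It passed the threshold in 6 of 19 alternatives, quantile normalization among them with -0.33 and an adjusted p of 0.0215. The KO arrays at 4 h differed from mock by -0.25 with e7 (adjusted p 0.675). Probe set 1425444_a_at of the same gene was higher in KO over 7 conditions by 0.47 ± 0.14 (adjusted p 0.011). In that comparison 33.4% of all probe sets were called and their median difference was 0.11. At 4 h with e7 this probe set differed by 1.34 (adjusted p 0.0132), where 15.6% were called and the median was 0.21. The arrays there read 6.85, 5.82, 4.84 and 7.47 in WT and 7.89, 7.74 and 7.13 in KO. The 2 lowest of those values were WT replicates 2 and 3, and without either (1.2, 0.0537, and 0.87, 0.122) or without KO replicate 1 (1.19, 0.0698) or 2 (1.27, 0.0638) the call at 4 h was lost, as it was with only these 2 groups in the fit (0.346). Over the 15 group means this probe set and the main one correlated at r of 0.02, as a description.

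**Figure D3:**
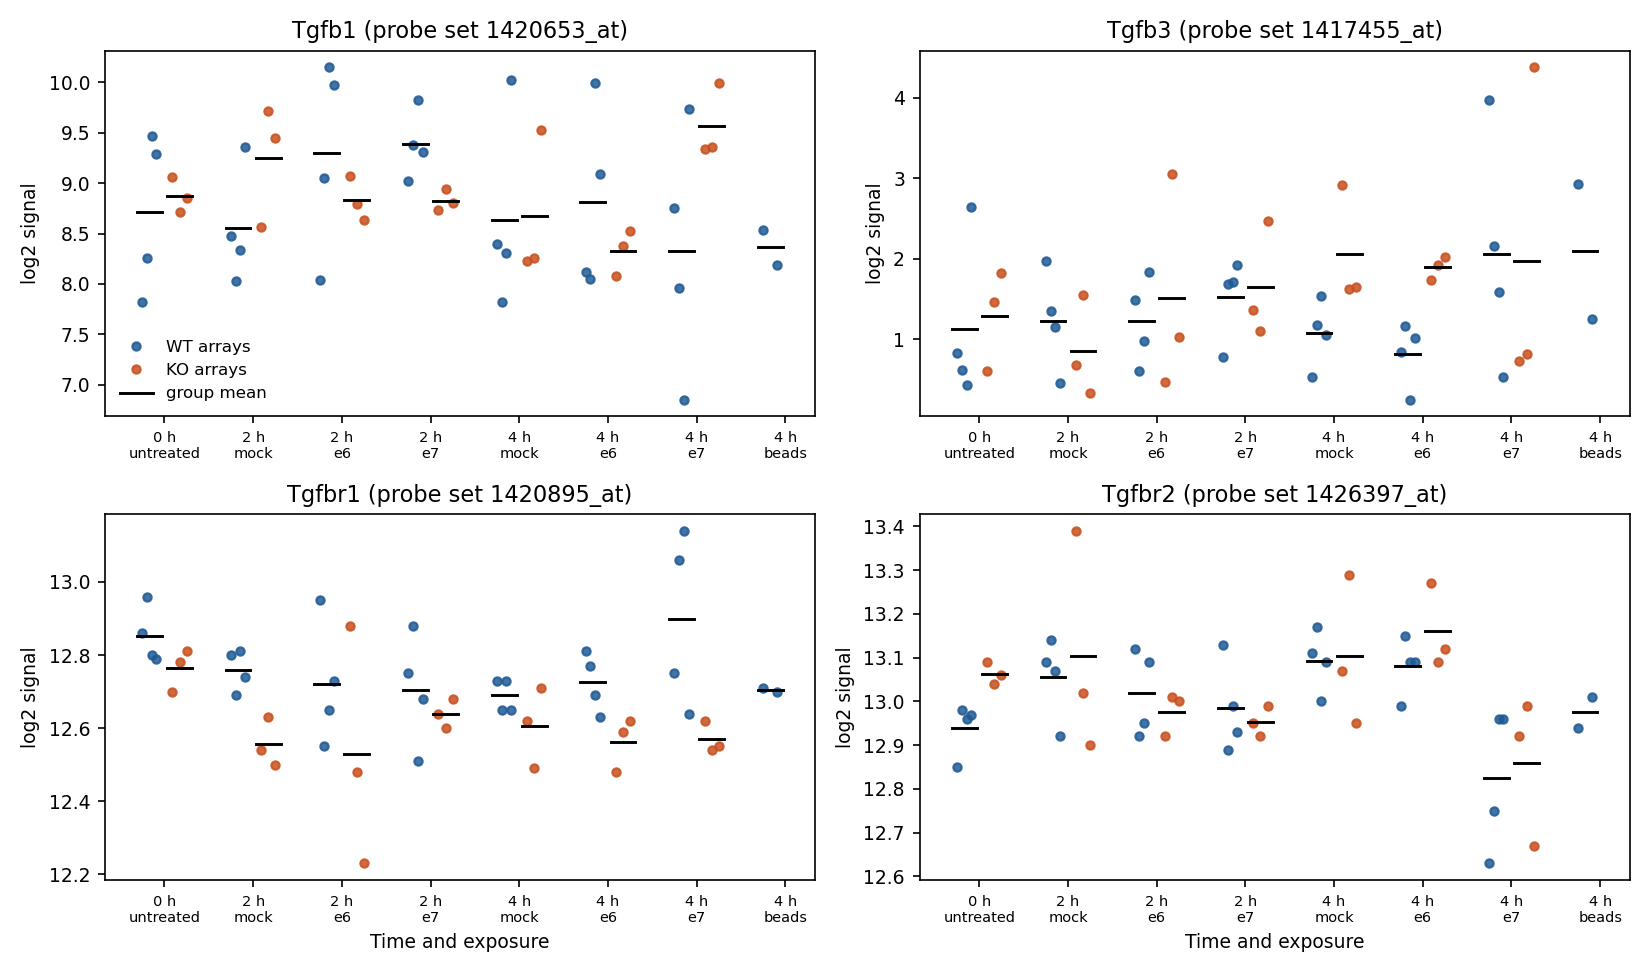
Log2 signal of the main probe sets of Tgfb1, Tgfb3, Tgfbr1 and Tgfbr2 on each array, by time and exposure, with WT in blue, KO in orange and group means as black lines; each panel has its own scale. Tgfb1 spreads from 6.85 to 10.15, Tgfb3 stays at or below 4.38, Tgfbr1 lies between 12.23 and 13.14, and Tgfbr2 is lowest at 4 h with e7.

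Tgfbi, a secreted protein of the extracellular matrix that binds integrins, was lower in WT macrophages at 4 h with e7 than after mock or with beads. The e7 arrays read 13.06, 12.5, 12.92 and 13.19 on the main probe set 1448123_s_at, and the mock arrays read 13.2, 13.47, 13.18 and 13.45. Of the 4 e7 arrays 3 lay below every mock array, replicate 2 lowest, and replicate 4 was within the mock range. Tgfbi fell by 0.41 on the log2 scale (SE 0.12), or 1.33-fold, with an adjusted p of 0.0189, and 15.5% of all probe sets were called in that comparison. The difference was larger on 1415871_at, which read 11.44, 10.13, 9.58 and 11.88 with e7 against 11.8, 11.92, 11.83 and 12.39 after mock, or -1.23 ± 0.28 with an adjusted p of 0.00279. On 1437463_x_at it was -0.66 ± 0.18 (adjusted p 0.0107), with 11.96, 11.73, 12.46 and 12.18 against 12.68, 12.89, 12.92 and 12.46, and on 1456250_x_at it was -0.21 ± 0.11 (adjusted p 0.214). Replicates 2 and 3 gave the 2 lowest values on the main probe set and on 1415871_at. Replicate 3 was instead the highest e7 array on 1437463_x_at and on 1456250_x_at, where it read 13.02.

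The Tgfbi call on the main probe set was lost without e7 replicate 2 (-0.27, adjusted p 0.166), without e7 replicate 3 (-0.41, 0.0538), without both (-0.2, 0.557), without mock replicate 2 (-0.36, 0.0757) or 4 (-0.37, 0.0607), and when only these 2 groups were fitted (adjusted p 0.388). Neutrophil markers averaged 8.87 on WT mock replicate 3, 7.99 on WT e6 replicate 4 and 7.47 on WT e7 replicate 3 at 4 h, and without those 3 arrays Tgfbi differed by -0.46 with an adjusted p of 0.0534. On 1415871_at the difference was -0.32 (adjusted p 0.608) without e7 replicates 2 and 3 and -0.89 (0.0505) without the 3 arrays, and on 1437463_x_at it was -0.54 (0.0716) without e7 replicate 2. With only these 2 groups in the fit neither probe set was called (0.319 and 0.28).

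The same e7 arrays enter the comparisons with beads and with e6, so these are not separate evidence. The bead arrays read 13.46 and 13.39, above all e7 arrays, as 17.7% of probe sets had groups that did not overlap there, and e7 minus beads was -0.51 ± 0.15 with an adjusted p of 0.0497 and 3.59% of probe sets called. The ratio of 3′ to 5′ control signal was 17.3 to 39.9 with beads and 2.4 to 14.3 with e7, and with its log2 as a covariate the difference was -0.41 and its adjusted p 0.115. The call against beads was lost without either bead array (-0.47, 0.307, and -0.55, 0.115) and without e7 replicate 2 (-0.37, 0.185) or 3 (-0.51, 0.0852), with array weights (-0.59, 0.0762) and with only these 2 groups in the fit (0.73). Over 2 h and 4 h, e7 minus e6 in WT was -0.31 ± 0.09 with an adjusted p of 0.0189 and 10.8% of probe sets called, and it was lost without e7 replicate 2 (-0.24, 0.0738) or e6 replicate 3 (-0.28, 0.0506) of 4 h, with quantile normalization (-0.27, 0.0808) and with only these groups in the fit (0.226). The e6 arrays at 4 h read 13.45, 13.22, 13.63 and 13.59, all above the e7 arrays, where 8.04% of probe sets had groups that did not overlap, whereas at 2 h the e6 arrays (13.39, 13.28, 13.38 and 13.4) and the e7 arrays (13.45, 13.2, 13.19 and 13.37) overlapped. Beads differed from mock by 0.1 (adjusted p 0.773).

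In KO at 4 h the e7 arrays of Tgfbi read 13.16, 12.82 and 12.99 and the mock arrays 13.41, 13.23 and 13.26. The groups did not overlap, as for 16.3% of probe sets, and the difference was -0.31 ± 0.14 with an adjusted p of 0.679 in a comparison where 0.00442% of probe sets were called. KO response minus WT response was 0.1 ± 0.19 (adjusted p 0.846), so the 2 genotypes were not shown to differ in this response. Across conditions the KO mean was lower by 0.16 ± 0.05 (adjusted p 0.0123, 1.12-fold), where 33.4% of all probe sets were called. In untreated cells the difference was -0.37 and not called. It was called in 2 of 17 alternatives, with array weights (-0.44, adjusted p 0.00961) and without KO replicate 3 (-0.51, 0.0381). Among single conditions as deposited only e6 at 4 h was called, with a difference of -0.42 (adjusted p 0.0245). The KO arrays there, at 13.09, 13.08 and 12.98, were all below the WT arrays. In that comparison 17.5% of probe sets were called and 29.3% had groups that did not overlap. The call with e6 was lost in 9 of 18 alternatives. Among them were those without any 1 of the 3 KO arrays (-0.44 to -0.39, adjusted p 0.0515 to 0.0928), without WT replicate 3 (-0.37, 0.0738) or 4 (-0.38, 0.0594), and with only these 2 groups in the fit (0.173). The genotype difference was also called on 1456250_x_at (-0.16, adjusted p 0.00382), was -0.2 on 1415871_at (adjusted p 0.188) and turned to 0.06 on 1437463_x_at (adjusted p 0.545).

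**Figure D4:**
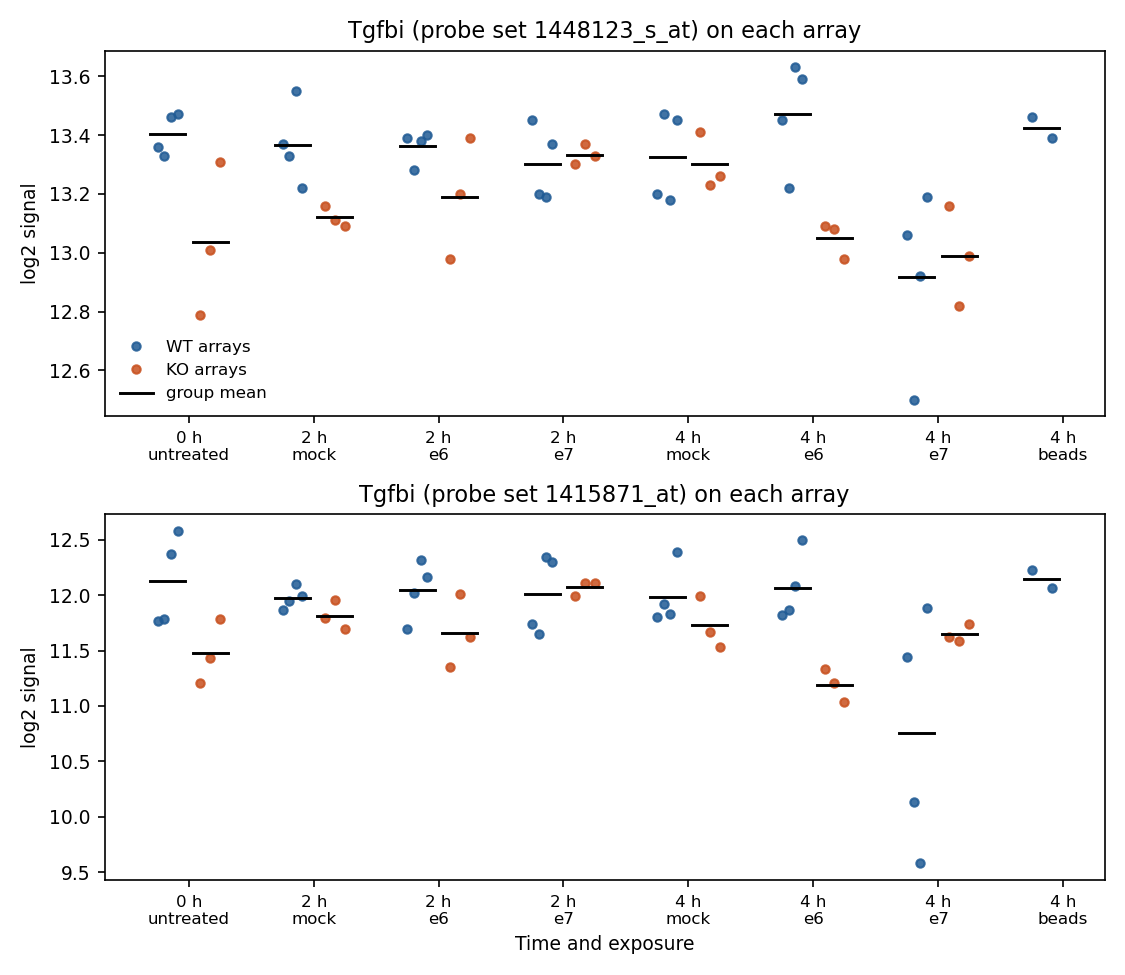
Log2 signal of Tgfbi on each array for the main probe set (top) and for 1415871_at (bottom), by time and exposure, with WT in blue, KO in orange and group means as black lines. At 4 h with e7, WT replicates read down to 12.5 on the main probe set and down to 9.58 on 1415871_at.

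Around the members, 87 further genes of the pathway were measured, in 6 lists chosen with earlier results of these data known. Averaged over the 7 conditions, 40 of them (46%) were called between the genotypes, 19 higher and 21 lower in KO, against 33.4% of all probe sets and 35% of the main probe sets of all genes. With quantile normalization 11 were higher and 24 lower. The median difference of the 87 genes was 0.01 and that of all probe sets 0.11.

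Among 20 genes listed under latency and activation of the ligands, 7 were higher and 1 lower in KO, or 4 and 2 with quantile normalization. Mmp14, a membrane-bound metalloprotease able to release active TGF-beta, had the lowest adjusted p, with means of 8.71 in KO and 5.25 in WT and a difference of 3.45 ± 0.17 (6.48e-19). It was also higher in untreated KO cells, by 2.58. Mmp2, a gelatinase that Mmp14 activates, was higher by 1.85 ± 0.32 (2.08e-05). Ltbp2 and Ltbp3, of the family named latent TGF-beta binding proteins, were higher by 0.73 (adjusted p 0.000297) and 0.62 (0.000475), and Ltbp3 was not called with quantile normalization (0.36, 0.0547). The WT means of Mmp14, Mmp2 and Ltbp2, at 5.25, 4.09 and 4.86, and the KO mean of Ltbp2, at 5.6, correspond to signals under 50. With such signals set to 50 the differences were 2.96 for Mmp14, 0.6 for Mmp2 (adjusted p 6.48e-05) and 0.19 for Ltbp2 (0.0051), so the sizes of the latter pair rest on the low end of the scale.

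Of 12 Smads and their co-factors, 1 was higher and 6 were lower in KO, or 0 and 5 with quantile normalization. Of 13 inhibitors of the pathway 1 was higher and 2 lower, namely Skil, a co-repressor that binds Smads, by -0.34 (adjusted p 9.01e-05), and Pmepa1, a target gene that dampens the receptor signal, by -0.54 (6.65e-07). Of 9 genes of the non-Smad arm 4 were lower and none higher, among them Pik3r1, a regulatory subunit of phosphoinositide 3-kinase, by -0.52 (2.03e-06). Of 9 co-receptors and receptor-associated genes 3 were higher and 2 lower, or 1 and 3 with quantile normalization.

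Of 24 targets 7 were higher and 6 lower in KO, or 5 and 7 with quantile normalization. Id2, an inhibitor of basic helix-loop-helix factors, was higher by 0.83 ± 0.06 (adjusted p 6.04e-13), Cdkn2b, an inhibitor of cyclin-dependent kinases, by 0.76 (1.32e-06), and Timp1, an inhibitor of metalloproteases, by 1.01 (6.07e-05), or by 0.62 (0.000119) with signals under 50 set to 50. Fn1, which encodes fibronectin, was lower by 0.54 on the log2 scale, with means of 12.04 in KO and 12.58 in WT (adjusted p 1.13e-08), and Klf10, an early TGF-beta response gene, had a difference of -0.45 (1.15e-07). Targets thus moved both ways, and among the 24 no common direction was seen.

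**Figure D5:**
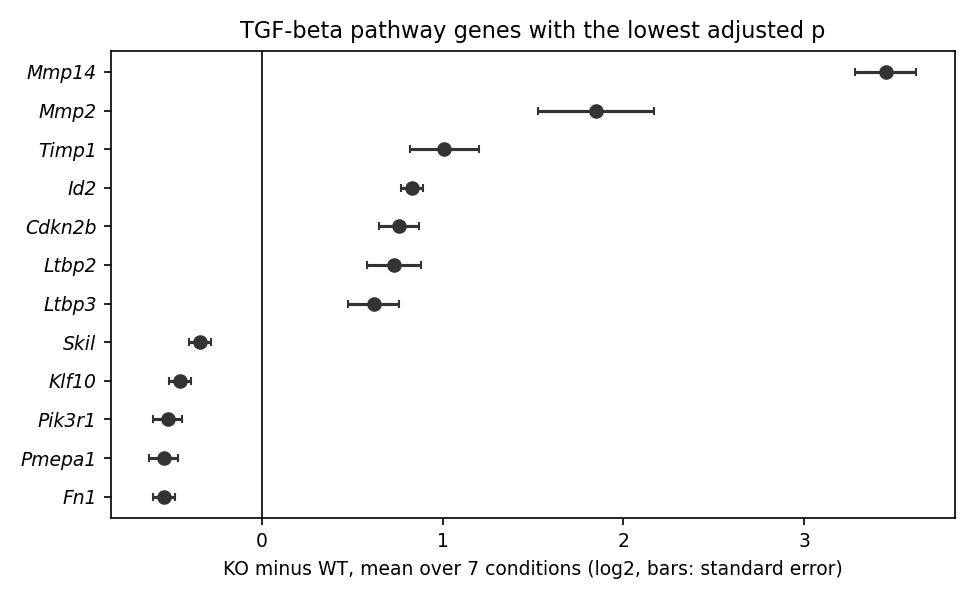
KO minus WT difference in log2, averaged over 7 conditions, of the 12 pathway genes with the lowest adjusted p; points are estimates and bars are standard errors. Mmp14 stands farthest from 0 at 3.45, and 5 genes are lower in KO.

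In response to conidia, 12 of the 87 pathway genes (13.8%) passed the test in WT at 4 h with e7, 9 higher and 3 lower, where 15.5% of all probe sets were called. Itgb1, the integrin beta 1 chain, rose by 1.44 ± 0.27 (adjusted p 0.000383), while Itgb5, an integrin chain that takes part in activating latent ligand, fell by 1 on the log2 scale (SE 0.24, 0.00341). Smad1, a signal transducer better known for BMP receptors, rose by 0.95 (0.00232), the common mediator Smad4 by 0.61 (0.0103), the receptor-associated Strap by 0.6 (0.004), the ubiquitin ligase Traf6 by 0.77 (0.006) and the adaptor Dab2 by 0.42 (0.0105), and Fn1 fell by 0.55 on the log2 scale (0.0101). Without e7 replicates 2 and 3 none was higher and 1 was lower, with 0.902% of all probe sets called. Smad4 was not called without e7 replicate 3 (0.47, 0.0906), Dab2 without e7 replicate 2 (0.35, 0.0674) or 3 (0.35, 0.075) or mock replicate 3 (0.34, 0.0615), and Fn1 without mock replicate 2 (-0.48, 0.0517). With only these 2 groups in the fit, none of the genes named here for this comparison was called (adjusted p 0.275 to 0.376). With the 3 neutrophil-rich arrays left out 3 were higher and 1 lower, with 5.15% called. Tgif1, a Smad co-repressor, rose in WT at 2 h with e7 by 1.02 (adjusted p 0.0104), 1 of 3 genes called there, and was not called without e7 replicate 4 (0.91, 0.0529) or mock replicate 1 (0.83, 0.0636), with the 3′ to 5′ covariate (0.95, 0.102) or with only these 2 groups in the fit (0.162).

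In KO at 2 h with e7, 10 of the 87 genes (11.5%) were called, 9 higher and 1 lower, against 8.65% of all probe sets, or 7 and 4 with quantile normalization. Tgfb2 was called higher there on the signal as deposited, a call lost in 9 of 15 alternatives. Map3k7, which encodes the kinase TAK1 of the non-Smad arm, rose by 1.41 ± 0.23 (adjusted p 0.000339, and 0.0746 with only these 2 groups in the fit), and Furin, the protease that cleaves the ligand precursors, by 1.28 ± 0.33 (0.015), a call lost without e7 replicate 1 (1.26, 0.0506) or 3 (1.22, 0.0626) or mock replicate 2 (1.16, 0.0628) or 3 (1.22, 0.0571). Bambi, a decoy receptor, rose by 3.6 from a mock mean of 2.14, and with signals under 50 set to 50 the rise was 0.13. The KO response exceeded the WT response for 3 genes of the 87, Map3k7 by 1.28 ± 0.3 (adjusted p 0.0233), Bambi (0.0123) and Col1a1, a collagen gene (0.0434), where 1.45% of all probe sets were called. Bambi and Col1a1 were under a signal of 50 on all WT arrays and all KO mock arrays of that comparison, so their differences of 5.07 and 4.84 are not sizes of a change. With such signals set to 50 they were 0.13 for Bambi, which was then not called (0.249), and 0.64 for Col1a1 (0.0393).

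The genes whose group means followed a member most closely were ranked by Pearson's r over the 15 groups among 5090 genes with a mean log2 of at least 8, which left out Tgfb2 and Tgfb3. Tgfbi was followed most closely by Cebpd (r = 0.91), Trrap (0.91) and Atg16l1 (0.9), and Tgfbr1 by Zfp36l2 (0.92), Elovl5 (0.91) and Rpia (0.89). Tgfbr2 had Vps29 (0.87), Casp6 (0.86) and Ms4a6d (0.85), and Tgfb1 had Necap1 (0.8), Lcp2 (0.79) and Cxxc1 (0.79). The highest of so many values is high in any case, and all points share the same arrays.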

How the data were processed

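Each array holds RNA extracted from fresh alveolar macrophages and labelled by a two-cycle protocol from 100 ng of total RNA, per the labels' protocols. The values are linear intensities as deposited, which the authors had scaled so that the trimmed mean of each array, with 2 percent cut at each end, is 500; none is 0 or below. The submitters' processing notes name GCOS and RMA without a role or version, and the genome build behind the probe sets is not given in the sources used here. Groups follow the sample titles, also for the WT mock arrays at 4 h, whose treatment field names conidia.

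The log2 intensities of 22626 probe sets, 64 controls of 22690 being left out, were analysed in R 4.3.3 by limma 3.58.1 with 1 mean per group. Tests are two-sided, and p-values were adjusted by Benjamini-Hochberg over all probe sets within each of 23 comparisons, with 8 contrasts added after the values were seen. Gene names come from the platform annotation, in which 20380 probe sets have 1 symbol, 691 several and 1555 none. Pathway genes are named in order of adjusted p, at most 12 per family of comparisons. The members and lists were chosen with earlier results of these data known. The script was tested on simulated data. Alternatives changed the scaling, the low end of the signal, array weights, a replicate block, a 3′ to 5′ covariate, the groups fitted, the probe set and the arrays left out. Setting low signals to 50 was extended to other probe sets and pathway genes after the values were seen. P-values measure only the spread between these arrays, since nothing says how many mice each holds.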

Additional observations from a re-analysis of the deposited data

Results flagged for a closer look

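Of 42 combinations of a member and a WT group of 4 arrays, 2 held an array that stood apart from the rest of its group by Dixon's test, and chance alone marks about 1 group in 20. Tgfbr2 read 12.85 on untreated WT replicate 1 against 12.96 to 12.98 on the other arrays. Tgfbi read 13.28 on WT replicate 2 at 2 h with e6 against 13.38 to 13.4 on the others. Both gaps are small on the log2 scale.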

How the results depend on the processing

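The member counts called between the genotypes (4, with 3 to 5 over alternatives), after mock (0) and in the genotype difference of response (0) stayed within 1.5 times. With the replicate block the counts stayed at 2, 0, 1, 4, 0 and 1 for conidia, mock, beads, genotype, difference in response and dose. The labels do not say whether a replicate number is shared across groups. With group means removed, same-numbered arrays of 1 genotype correlated at a mean r of 0.08 and other pairs at -0.03. Of 161 same-numbered pairs 75 correlated above 0.1, and 17 of 51 arrays correlated best with their own number. These values do not settle whether the numbers pair the arrays. The conidia count of 2 became 0 with only the groups compared in the fit, and 1 without WT e7 replicates 2 and 3 at 4 h, without the 3 arrays with high neutrophil markers, with either other Tgfb2 probe set or with Tgfbi by 1456250_x_at; without single arrays it ran from 1 to 3. The bead count of 1 became 3 with signals under 50 set to 50, through 2 Tgfb2 comparisons whose own arrays that setting left unchanged. It became 0 with array weights, the 3′ to 5′ covariate or only the groups compared. The same held without those 2 or those 3 arrays, and with Tgfbi by 1437463_x_at or 1456250_x_at. Without single arrays the bead count ran from 0 to 1. The dose count of 1 became 0 with quantile normalization, only the groups compared, without those 2 or those 3 arrays, and with the same Tgfbi probe sets; without single arrays it ran from 0 to 1. Signs turned for the genotype difference of Tgfbr1 by 1420893_a_at (0.15) and of Tgfbi by 1437463_x_at (0.06), and for the genotype difference in the mock change of Tgfb2 at 2 h by 1450922_a_at (-0.37). The cause of these moves was not tested. Low signal limits Tgfb3 and Tgfb2 in KO.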
